A study of Homo sapiens with 8 samples.

Results

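The genes described here were on in untreated Raji-4RH cells and off in untreated Raji cells. A gene was taken when it stood at 2 FPKM (fragments per kilobase of gene, scaled to library size) or more in both Raji-4RH DMSO libraries and under 0.1 FPKM in both Raji DMSO libraries. This held for 167 of 18143 genes with a usable place in the expression table, called members below. In the deposited table many values stand some rows below their labels, and 117 of the members rest on values moved back to their label by fixed shifts, while 50 share its row. In the opposite direction, 82 genes were on in Raji and off in Raji-4RH by the same limits.

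Raji is a rituximab-sensitive human Burkitt lymphoma line, and Raji-4RH is its rituximab-resistant derivative. Rituximab is an antibody against the B cell surface protein CD20. Each line was cultured for 24 h with 3 μM chidamide, an inhibitor of histone deacetylases, or with its solvent DMSO, and RNA of flow-sorted cells was sequenced. There were 2 libraries in each of the 4 groups. The labels do not say that the 2 libraries of a group came from separate cultures, so the p-values measure only the spread between these libraries. Raji-4RH is 1 derived line, so the acquired resistance cannot be told apart from other differences between these 2 cultures. The libraries held 13991697 to 21193441 reads, with the fewest in Raji-4RH chidamide replicate 1. All 9 placed genes of the B cell marker list stood at 1 FPKM or more in all 8 libraries, and no member was on any of the cell type marker lists. The T and NK cell list does not hold the members CD4 and CD7, which are described below.

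A cell line keeps most genes outside its lineage silent, often with closed, deacetylated chromatin and methylated CpG sites at the promoter. Lines grown apart can come to differ in which of these genes are on. Histone deacetylases remove acetyl groups from histone tails, and inhibitors of them are known to raise some silent genes and to lower some active ones.

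The promoter sequences of 4 members are shown because these genes mark the ends of the data described below. CYP26A1 fell most with chidamide in Raji-4RH, ITM2C rose most, TRIM47 was among the 5 largest falls, and OGDHL had no read in any Raji library. Each line holds the 250 bases before the gene start that RefSeq gives (GRCh38.p14), read 5′ to 3′ on the gene's strand, and capitals mark CG dinucleotides, where DNA methylation mainly occurs in human cells.
CYP26A1: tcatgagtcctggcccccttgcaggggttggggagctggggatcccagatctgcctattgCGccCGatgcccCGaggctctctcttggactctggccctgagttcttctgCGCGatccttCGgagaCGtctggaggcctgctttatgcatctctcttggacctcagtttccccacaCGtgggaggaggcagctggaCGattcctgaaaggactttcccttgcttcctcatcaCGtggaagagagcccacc
ITM2C: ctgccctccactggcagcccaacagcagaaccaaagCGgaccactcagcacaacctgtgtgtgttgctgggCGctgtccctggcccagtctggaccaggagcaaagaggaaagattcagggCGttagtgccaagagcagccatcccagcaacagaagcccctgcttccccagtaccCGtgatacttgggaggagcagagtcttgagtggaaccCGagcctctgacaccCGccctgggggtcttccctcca
TRIM47: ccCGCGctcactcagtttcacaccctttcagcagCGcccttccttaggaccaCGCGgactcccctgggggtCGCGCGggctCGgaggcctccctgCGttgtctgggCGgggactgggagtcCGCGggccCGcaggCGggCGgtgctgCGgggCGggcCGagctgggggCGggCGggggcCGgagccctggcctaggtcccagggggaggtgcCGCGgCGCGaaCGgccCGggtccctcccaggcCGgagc
OGDHL: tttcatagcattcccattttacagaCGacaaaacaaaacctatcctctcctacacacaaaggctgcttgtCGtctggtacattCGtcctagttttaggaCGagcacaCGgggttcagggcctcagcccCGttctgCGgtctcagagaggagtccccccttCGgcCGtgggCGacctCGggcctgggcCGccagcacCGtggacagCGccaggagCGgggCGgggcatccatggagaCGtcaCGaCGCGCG

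The windows lie at chr10:93073225-93073474 on the plus strand for CYP26A1, chr2:230863935-230864184 on the plus strand for ITM2C, chr17:75878582-75878831 on the minus strand for TRIM47 and chr10:49762380-49762629 on the minus strand for OGDHL. All 4 lie outside the gene's own span in GENCODE v29. Where RefSeq gives several starts of a gene, the one farthest upstream was used. For ITM2C the window ends at chr2:230864184, whereas the GENCODE gene starts at chr2:230864639. Its window is therefore not the sequence next to that start. The printed windows of CYP26A1 and ITM2C held 10 and 6 CG dinucleotides, and those of TRIM47 and OGDHL held 29 and 21. With the first 50 bases of the gene added, the windows held 12 for CYP26A1, 7 for ITM2C, 36 for TRIM47 and 28 for OGDHL. Of 13265 placed genes with a RefSeq promoter, 72.6% held at least as many as CYP26A1 and 80.4% at least as many as ITM2C, against 17.9% for TRIM47 and 37.4% for OGDHL. These 4 genes, all off in untreated Raji, thus had CG-poor as well as CG-rich windows at the starts used here. Of the 167 members 116 had a promoter in the RefSeq table, as had 13265 of the 18143 placed genes. The members' promoters were not compared with those of other genes.

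The members were chosen by their FPKM in the 4 DMSO libraries, so these levels are given as a description, with no test. The members together took 7330 and 7404 RPM (reads scaled to the library total) in the Raji-4RH DMSO libraries, and 20.3 and 16.5 in the Raji DMSO libraries. Of the members, 90 had a mean of 2 to 5 FPKM in Raji-4RH DMSO, 39 of 5 to 10, 35 of 10 to 50 and 3 of 50 or more. The median member stood at 4.63 and 4.49 FPKM in the 2 Raji-4RH libraries and at 0.0111 and 0.0147 FPKM in the 2 Raji libraries. In 40 members, neither Raji DMSO library held a read, and 13 had none in any of the 4 Raji libraries. The lowest read number of a member in a Raji-4RH DMSO library was 9, for the small nucleolar RNA U3, and it was the one member with fewer than 50 reads there.

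**Figure D1:**
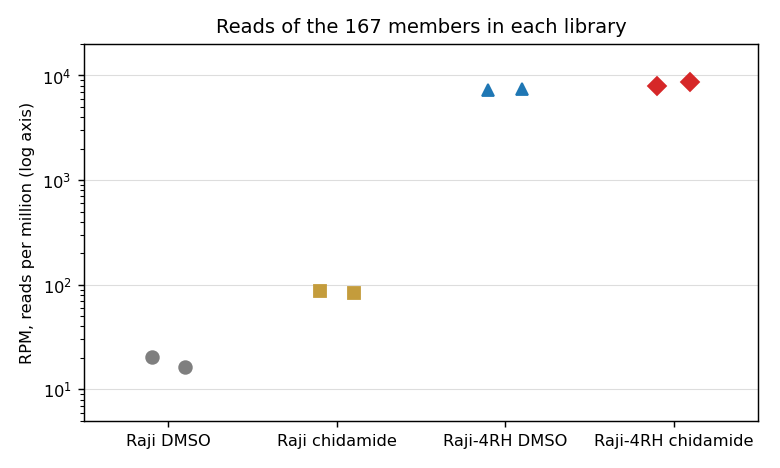
Reads of the 167 members in each library, in RPM, on a log axis; each symbol is 1 library. The Raji DMSO libraries stood at 20.3 and 16.5, the Raji chidamide libraries at 86.7 and 83.6, and the 4 Raji-4RH libraries between 7330 and 8606.

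At the limits of the rule, SLC35G1 (2.01 and 2.18 FPKM in Raji-4RH DMSO), IL18 (2.01 and 2.24) and SVIP (2.04 and 2.02) were just inside. GLYATL2 (2.23 and 1.93), MTUS1 (1.91 and 2.14) and ZNF790 (1.87 and 2.05) were just outside. At the limit for Raji, CMTM3 stood at 0.0961 and 0.0314 FPKM, ITM2C at 0.0582 and 0.0951 and ZNRF3 at 0.0945 and 0.0214, just inside. HOMER3 at 0.104 and 0.0435 FPKM, GSTP1 at 0.106 and 0 and NUDT11 at 0.106 and 0.104 were just outside. GSTP1, a glutathione transferase, reached 106.9 and 110.7 FPKM in Raji-4RH DMSO and missed the list through 1 library.

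EEF1A2, the form of translation elongation factor 1 alpha used in muscle and neurons, was the most abundant member. It stood at 278.8 and 310.5 FPKM in Raji-4RH DMSO and at 374 and 474 FPKM in Raji-4RH chidamide. In Raji it read 0.0505 and 0 FPKM with DMSO, and 0.121 and 0.168 with chidamide. It alone gave 7.63% and 8.41% of the members' reads in the Raji-4RH DMSO libraries and 9.41% and 11% in the chidamide libraries. EIF4EBP1, a repressor of cap-dependent translation that mTOR inactivates, stood at 132.7 and 138.1 FPKM in Raji-4RH DMSO and at 81.1 and 81.7 with chidamide. In the 4 Raji libraries it lay between 0.0447 and 0.271 FPKM.

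Some of the members are best known from muscle. TPM2, a tropomyosin of actin filaments, stood at 61.4 and 62.4 FPKM in Raji-4RH DMSO and at 47.7 and 46.9 with chidamide. SRL, the calcium-binding sarcalumenin of muscle, had 29.7 and 28.3 FPKM, then 18 and 20.3. TNNI1, the slow skeletal muscle troponin I, had 17.1 and 17.5 FPKM, then 13.9 and 12.7. In Raji, the highest value of these 3 genes in any library was 0.0712 FPKM, for TPM2 with chidamide. Others were MYBPC2, a myosin-binding protein of fast muscle, at 11.1 and 11.5 FPKM in Raji-4RH DMSO, LDB3, a protein of the Z line, at 3.48 and 3.98, RYR1, the calcium release channel of skeletal muscle, at 2.35 and 2.27, and the actin-nucleating LMOD1 at 2.2 and 2.57. They are placed side by side only for reading, were picked after their values were seen, and form no tested list.

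Several members are known from Wnt signalling, in which secreted ligands act through Frizzled receptors on transcription factors of the TCF/LEF family. The ligand WNT7B stood at 8.42 and 8.86 FPKM in Raji-4RH DMSO. FRZB, a secreted protein that binds Wnt ligands, stood at 34.2 and 33.3 FPKM, and NKD2, an intracellular inhibitor acting on Dishevelled, at 21.8 and 21.8. The receptor LGR6, which binds R-spondins, had 4.63 and 5.62 FPKM. ZNRF3, a ligase that removes Frizzled receptors, had 3.65 and 3.24, and LEF1, a nuclear effector, had 15.4 and 15.8. These members too were picked after their values were seen and form no tested list, and their low level in Raji DMSO is what the rule asked for.

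Among regulators of transcription, TEAD4, a DNA-binding partner of YAP and TAZ, stood at 36 and 37.9 FPKM in Raji-4RH DMSO. ID4, which blocks DNA binding of basic helix-loop-helix factors, stood at 29.1 and 31.5. IGF2BP1, an RNA-binding protein of fetal tissues, stood at 30.7 and 30.6. The retinoic acid hydroxylase CYP26A1 stood at 43.7 and 43.3 FPKM. IFITM1, an interferon-induced membrane protein, stood at 34.6 and 36.3, and the testis protease PRSS21 at 46.8 and 51.9. MAP1B, a microtubule-associated protein of neurons, stood at 38.7 and 37.9. These genes belong to unlike tissues, and each was under 0.1 FPKM in both Raji DMSO libraries, as the rule requires.

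Metabolic and membrane genes made up much of the rest of the 25 most abundant members. ASS1, which makes argininosuccinate for arginine synthesis, stood at 20.2 and 17.8 FPKM in Raji-4RH DMSO. QDPR, which regenerates tetrahydrobiopterin, stood at 16.8 and 17.2, and OGDHL, a relative of the oxoglutarate dehydrogenase of the citric acid cycle, at 23.6 and 24.2. The red cell membrane protein GYPC had 20.1 and 20.4 FPKM, the butyrophilin relative BTNL9 22.5 and 23.6, and CMTM3 17.3 and 16.6. The remaining members of the 25 were the carboxypeptidase relative CPXM1 (29.8 and 32.7), the extracellular matrix protein COCH (29 and 26.8), RPRML (21.4 and 24.1), the protease inhibitor CSTA (21.5 and 20.8) and the Ras-related RERG (18 and 17.5).

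**Figure D2:**
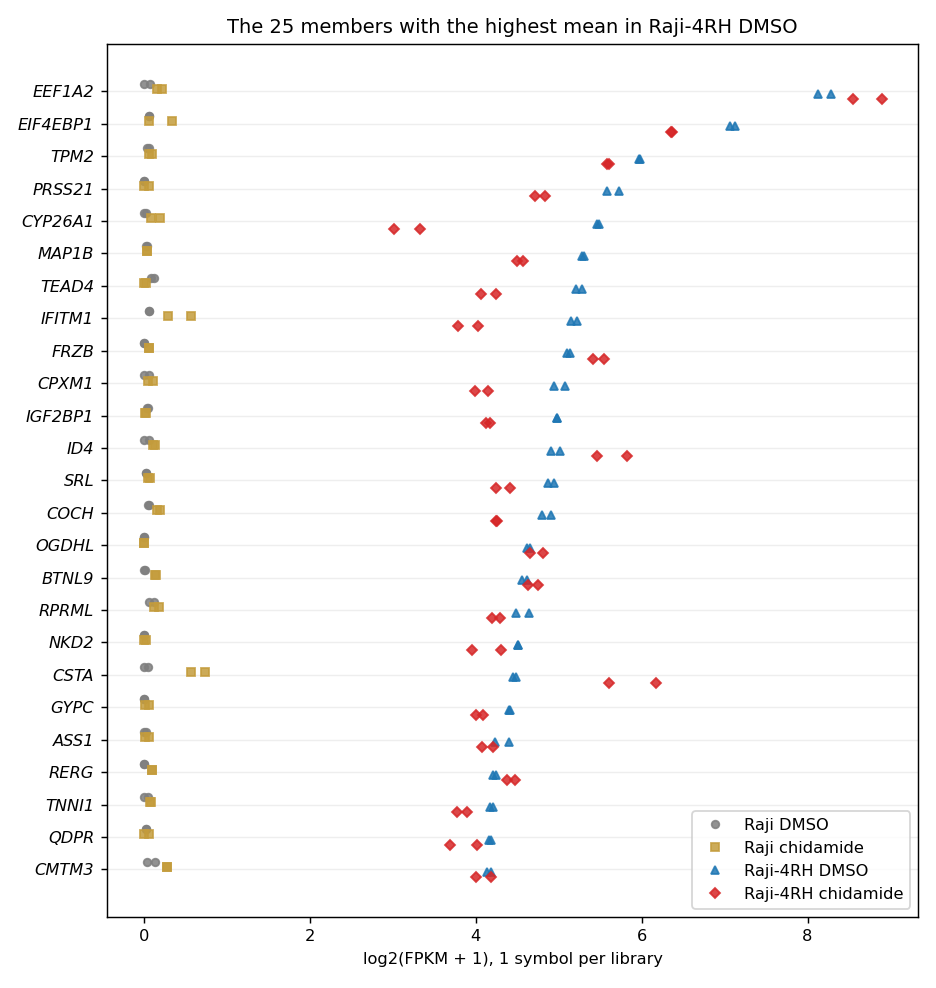
Levels of the 25 members with the highest mean in Raji-4RH DMSO, as log2(FPKM + 1), with 1 symbol for each of the 8 libraries. All Raji libraries lie at the left, with EEF1A2 at 0 to 0.168 FPKM, and all Raji-4RH libraries lie to the right of them; CYP26A1 shows the widest gap between DMSO and chidamide in Raji-4RH.

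The comparison of the 2 lines under chidamide was between 4 libraries that had no part in choosing the members, although its error was estimated in 1 fit over all 8 libraries. The spread between replicates was widest in Raji-4RH chidamide, with a chi-square per gene of 13.5, against 1.77 to 5.25 in the other groups. The fit shares its error over the groups, so standard errors and p-values of comparisons with Raji-4RH chidamide may be too small. All 167 members were called higher in Raji-4RH chidamide than in Raji chidamide (limma on log2(FPKM + 1), adjusted p under 0.05), and none lower. Over all 10710 genes tested, 44.3% were called higher and 35.0% lower, or 79.3% in either direction. The members' log2 differences ran from 1.00 (JAML) to 8.53 (EEF1A2) with a median of 2.66, against a median of 0.09 over all genes tested, and the highest adjusted p of a member was 0.00238. In a fit of the 4 compared libraries alone, all 167 were again called higher, with a highest adjusted p of 0.0165. With a log2 difference of at least 1 also asked for, the members' count was the same 167, while 12.9% of all genes tested were called higher and 7.93% lower. In each of the 167 members, both Raji-4RH chidamide libraries lay above both Raji chidamide libraries. The same share over all genes tested was not counted, so this count has no background beside it. The difference between the lines at baseline was thus also present in the treated libraries, although the treated cells are of the same 2 lines and are no independent pair of cultures.

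Marker lists of other cell types moved in different ways, given here as summed FPKM. The T and NK cell list (9 of 10 genes placed, 3 of them under 0.1 FPKM in all 8 libraries) summed to 10.5 and 10.3 FPKM in Raji-4RH chidamide and to 4.6 and 5.55 in Raji chidamide, against 2.45 to 3.09 in the DMSO libraries. In Raji-4RH chidamide most of this sum came from NKG7 (5.96 and 4.7 FPKM) and CD3E (2.94 and 4.1). NKG7 already stood at 1.3 to 2.02 FPKM in the 4 DMSO libraries. CD3D, which defines T cells, stood at 0.539 and 0.468 FPKM in Raji-4RH chidamide and at 0.157 and 0.362 in Raji chidamide. It was at 0 in all 4 DMSO libraries. CD247 had the opposite order, with 0.425 and 0.444 FPKM in Raji-4RH chidamide and 1.08 and 0.833 in Raji chidamide. The sum of the fibroblast list was also lower in Raji-4RH chidamide, at 2.88 and 3.61 FPKM against 11.4 and 11.5. Most of that gap came from VIM, at 1.08 and 1.34 FPKM against 8.99 and 8.82. COL1A1 was lower too, at 0.51 and 0.437 FPKM against 2.125 and 2.303. In contrast, COL1A2, PDGFRB, THY1, FAP, DCN and LUM were higher in Raji-4RH chidamide, and COL3A1 overlapped. The sum of the myeloid list was alike in both lines under chidamide, at 12.2 to 13.6 FPKM, against 1.34 to 1.52 in the DMSO libraries. Its genes were not alike. LYZ was higher in Raji-4RH chidamide, at 4.13 and 4.06 FPKM against 0.99 and 0.953 in Raji chidamide. CSF1R was lower, at 2.94 and 3.08 FPKM against 4.635 and 5.06, and so was ITGAM, at 1.99 and 2.8 against 3.96 and 3.585. The plasma cell list summed to 547 and 562 FPKM in Raji DMSO and to 327 and 328 in Raji chidamide. In Raji-4RH that list summed to 289 and 291 FPKM with DMSO and to 262 and 244 with chidamide. The part of these lists in the members' values was not tested.

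On the RPM scale, the fold between the lines under chidamide had a median of 208 over the members, with the 21 members that had no read in either Raji chidamide library set at their lower bound of 3 reads. The fold was 100 or more in 114 members. EEF1A2 was 2984-fold higher (95% interval 1708 to 5776, for counting error only). OGDHL, with no read in any Raji library, was at least 2048-fold higher, and the embigin gene EMB at least 208-fold higher. A fold under 10 was found in 8 members, CD1C, FAM49A, FBXO43, JAML, LRRC26, MKS1, TFR2 and VAT1L. The smallest was 6.39-fold for JAML (5.02 to 8.23), an adhesion molecule of leukocytes. LRRC26, a channel subunit, gave the least certain call, with 0.887 and 2.52 FPKM in Raji-4RH chidamide and 0.241 and 0.199 in Raji chidamide. Its log2 difference was 1.08 ± 0.230 (SE; limma adjusted p = 0.00238). With quantile normalisation it was 0.43 and no longer passed (limma adjusted p = 0.186).

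**Figure D3:**
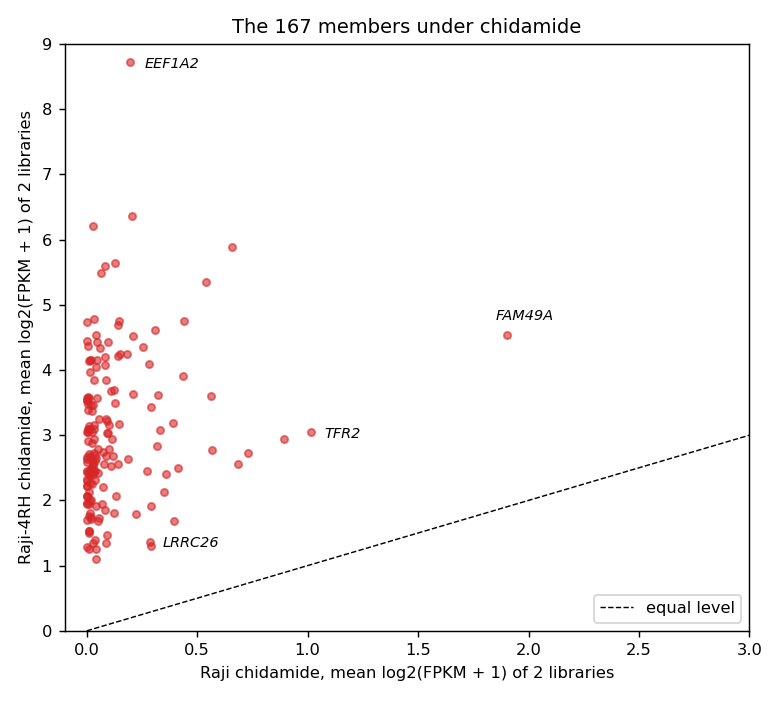
Mean log2(FPKM + 1) of the 2 Raji chidamide libraries (horizontal) against that of the 2 Raji-4RH chidamide libraries (vertical), 1 point for each of the 167 members; the dashed line marks equal levels. All points lie above the line, and FAM49A lies farthest to the right.

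Chidamide left most of the members near zero in Raji. In the Raji chidamide libraries they took 86.7 and 83.6 RPM, against 20.3 and 16.5 with DMSO. Since the members were chosen for a low level in Raji DMSO, a rise there is fixed in part by the choice, and no test was made. FAM49A (also named CYRIA), which binds the GTPase Rac1, was the one member at 1 FPKM or more in both libraries, at 2.79 and 2.68. It had been at 0.0093 and 0.0638 FPKM in Raji DMSO. FAM49A gave 17.5% of the members' reads in each Raji chidamide library, and without it the members took 71.5 and 69 RPM. TFR2, a transferrin receptor of liver and red cell precursors, reached 0.987 and 1.06 FPKM.

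Among the members, 1 of 167 (0.599%) reached 1 FPKM in both Raji chidamide libraries, compared with 29 of 6706 other genes (0.432%) that were under 0.1 FPKM in both Raji DMSO libraries. Of the latter, 403 were at 1 FPKM or more in at least 2 libraries of any kind, as the members were, and 29 of these (7.2%) reached 1 FPKM. These 403 include genes that had to rise in Raji to enter. At a limit of 0.5 FPKM, 5 members passed (2.99%), CD1C, FAM49A, MKS1, TFR2 and VAT1L, against 1.21% of the 6706 other genes and 10.9% of the 403. In both Raji chidamide libraries, 121 members (72.5%) were still under 0.1 FPKM, against 85.6% of the 6706 and 52.1% of the 403. The members' shares thus lay between those of the 2 backgrounds for these limits, and none of the differences was tested.

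Within Raji-4RH, members differed between chidamide and DMSO in both directions. The DMSO libraries of this comparison also served the rule, and asking for a high DMSO level leans the differences towards falls, so the members' calls and differences are a description and no independent test. By the fit over the whole table, 77 members (46.1%) were called higher with chidamide, 57 (34.1%) lower, and 33 passed in neither direction (limma, adjusted p under 0.05). Over all 10710 genes tested, 43.3% were called higher and 31.6% lower (74.9% in either direction), so both shares of the members were near the background. The median log2 difference was 0.10 over the members and 0.09 over all genes tested. This median depended on the scaling. With quantile normalisation it was -0.03 over the members, of which 62 were called higher and 73 lower, and the higher calls made up 47.8% of all calls over the table against 57.9% without it. With a log2 difference of at least 1 also asked for, 26 members were higher (15.6%, against 10.1% of all genes tested) and 7 lower (4.19%, against 5.05%).

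The 5 largest falls among members whose groups did not overlap were CYP26A1, EMB, BEST3, TRIM47 and IFITM1. CYP26A1 went from 43.7 and 43.3 FPKM to 9.04 and 7.11, a log2 difference of -2.30 ± 0.097 (SE). EMB, a chaperone of lactate transporters, went from 12.9 and 13.4 FPKM to 3.05 and 2.74 (-1.86 ± 0.062). The chloride channel gene BEST3 went from 7.77 and 7.05 to 1.218 and 1.574 FPKM (-1.81 ± 0.082). TRIM47, a ubiquitin ligase, went from 8.72 and 9.13 to 2.12 and 2.56 FPKM (-1.58 ± 0.073), and IFITM1 from 34.6 and 36.3 to 15.3 and 12.8 (-1.28 ± 0.106). All 5 remained above every Raji library with the same treatment, where IFITM1 was highest at 0.225 and 0.489 FPKM. TEAD4 also fell, from 36 and 37.9 to 18 and 15.7 FPKM (-1.09 ± 0.072).

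The 5 largest rises were ITM2C, FAM49A, MYBPC2, HHEX and AHR. ITM2C, a transmembrane protein that binds the amyloid precursor protein, went from 10.6 and 10.4 FPKM to 77.2 and 68.4, a log2 difference of 2.68 ± 0.069. In Raji it had 0 and 2 reads with chidamide, at 0 and 0.0368 FPKM. FAM49A went from 3.71 and 3.27 to 22.8 and 21.8 FPKM (2.38 ± 0.068), and was thus higher with chidamide in Raji-4RH while also being the most abundant member in Raji chidamide. MYBPC2 went from 11.1 and 11.5 to 37.8 and 42.3 FPKM (1.73 ± 0.069). The homeobox gene HHEX went from 4.62 and 4.49 to 17.4 and 17.5 FPKM (1.73 ± 0.056), and AHR, the receptor for dioxin-like ligands, from 2.63 and 2.47 to 10.6 and 10.3 (1.69 ± 0.056). AHR and ITM2C were on in Raji-4RH under both treatments while AHR had no read in either Raji chidamide library.

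**Figure D4:**
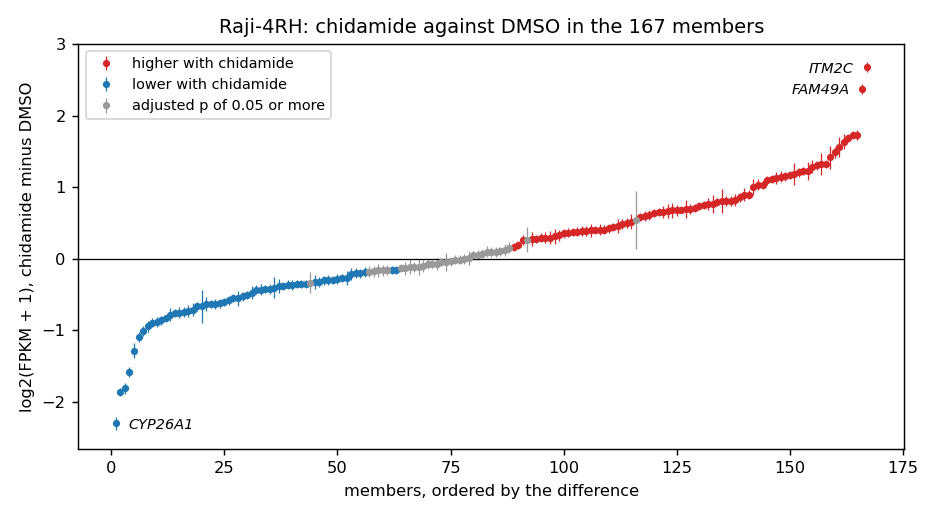
Difference between chidamide and DMSO in Raji-4RH for each of the 167 members, on the log2(FPKM + 1) scale, ordered by size; points are limma estimates and bars their standard errors. The 77 red points were called higher, the 57 blue points lower and the 33 grey points neither, and the differences run from -2.30 for CYP26A1 to 2.68 for ITM2C.

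Among the abundant members, EIF4EBP1 (-0.73 ± 0.086), PRSS21 (-0.88 ± 0.072), MAP1B (-0.76 ± 0.055), CPXM1 (-0.94 ± 0.075), IGF2BP1 (-0.83 ± 0.053), COCH (-0.60 ± 0.059) and SRL (-0.58 ± 0.069) fell with chidamide. EEF1A2 (0.52 ± 0.106), ID4 (0.68 ± 0.106), FRZB (0.36 ± 0.061) and CSTA (1.42 ± 0.156) rose. OGDHL (0.10 ± 0.066), BTNL9 (0.11 ± 0.062), ASS1 (-0.17 ± 0.077) and CMTM3 (-0.07 ± 0.073) did not pass the test. The call for EIF4EBP1 was lost with a pseudocount of 0.1 (limma adjusted p = 0.0872). These values are log2 differences with their SE. Of the Wnt members, FRZB and LGR6 (0.77 ± 0.131) rose, WNT7B (-0.74 ± 0.070), NKD2 (-0.38 ± 0.101) and LEF1 (-0.36 ± 0.067) fell, and ZNRF3 (-0.16 ± 0.070) did not pass. The call for NKD2 was lost with quantile normalisation (-0.22, limma adjusted p = 0.0932).

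Of the gene families listed for this work, 37 members (22.2%) fell in any. The families were drawn by patterns of gene symbols and are incomplete. They hold neither TEAD4, HHEX and AHR among the transcription factors nor BEST3 and RYR1 among the channels. The sequence-specific transcription factors held 9 members, 1.8% of the 499 tested genes of that family, against 1.56% of all tested genes that were members. ID4, LEF1, ZNF516 and ZNF385B were the most abundant of these 9, with ID4 listed there although it acts by blocking the DNA binding of other factors. The cytoskeleton and vesicle traffic family held 6 members (2.49% of 241), led by TPM2, the membrane skeleton protein EPB41L2 (8.59 and 8.74 FPKM in Raji-4RH DMSO) and the recycling GTPase RAB4A (7.99 and 6.99). The interferon and innate sensing family held 4 (3.88% of 103), namely IFITM1, TRIM47, NLRP2 and TRIM68, of which IFITM1, TRIM47 and TRIM68 (-0.15 ± 0.058) fell with chidamide in Raji-4RH and NLRP2 (0.86 ± 0.061) rose. The call for TRIM68 (limma adjusted p = 0.0388) was lost under 12 alternative settings, among them leaving out any 1 of 7 libraries.

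Immune receptors and ligands were present in small numbers. The cytokine and chemokine family held 3 members (3.66% of 82). TNFSF8, the ligand of CD30, stood at 8.95 and 8.91 FPKM in Raji-4RH DMSO and 7.3 and 7.16 with chidamide (-0.27 ± 0.054). TNFRSF18, the co-stimulatory receptor GITR, went from 7.12 and 9.33 to 22.6 and 29.8 FPKM (1.56 ± 0.140), and the cytokine IL18 from 2.01 and 2.24 to 5.47 and 6.45 (1.15 ± 0.079). The antigen presentation and immune receptor family held 3 (3% of 100). CD7, found mainly on T and NK cells, went from 6.9 and 8.42 to 17 and 25.2 FPKM (1.33 ± 0.157), and CD4, the T helper cell co-receptor, from 4.03 and 4.65 to 7.6 and 8.62 (0.77 ± 0.082). CD1C, which presents lipids, had 5.76 and 4.83 FPKM, then 7.37 and 5.98 (0.28 ± 0.104), and 0.778 and 0.937 in Raji chidamide. Its call within Raji-4RH (limma adjusted p = 0.0357) was lost under 11 alternative settings, for example without Raji-4RH chidamide replicate 1 (0.15, limma adjusted p = 0.198). All 6 were under 0.1 FPKM in both Raji DMSO libraries.

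The kinase, phosphatase and adaptor family held 4 members (2.14% of 187). IGF2BP1 was among them because its symbol begins like those of the insulin-like growth factors, although it binds RNA. The others were the Ras GTPase-activating RASA3 (12.1 and 11.1 FPKM in Raji-4RH DMSO), the phosphatase PTPRB (2.86 and 2.61) and the calcium-dependent kinase CAMK4 (2.44 and 2.27). The symbol patterns for ion channels and transporters found 4 (1.38% of 289), KCNK6, SLC4A11, SLC26A1 and SLC35G1, of which KCNK6 stood highest at 3.53 and 3.6 FPKM. The germline family held LIN28B, a repressor of let-7 microRNAs (2.96 and 3.1 FPKM), and SPATA20 (2.21 and 2.83), 4.55% of 44. The adhesion family held LGALS9 (3.36 and 3.82) and the G protein family P2RX1 (2.47 and 2.23), 1.15% of 87 and 1.2% of 83. P2RX1 was taken there by its symbol, although it is an ATP-gated channel. None of these shares was tested.

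By gene type, 161 of the 167 members were protein-coding, and the others were 1 lincRNA, 1 processed transcript, 3 pseudogenes and the small nucleolar RNA U3. U3 and the pseudogene RPSAP47 have near-identical copies elsewhere, so their reads are uncertain. RPSAP47 also had the widest spread, with 10.6 and 2.81 FPKM in the 2 Raji-4RH chidamide libraries. In 101 members the gene overlapped another annotated gene, in 77 of them one on the other strand. The use of strand in counting is not given in the sources used here, so reads of such pairs cannot be told apart.

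The members were spread over the genome. On the chromosomes with the highest shares, chromosome 4 held 10 of 368 tested genes as members (2.72%) and chromosome 20 held 8 of 309 (2.59%). A further member within 500 kb was found for 33 of 167 members (19.8%), and a member within 500 kb for 1280 of 10539 other tested genes (12.1%). The difference was not tested, because neighbouring genes can overlap and share reads. These 33 formed 16 neighbourhoods, 15 of them pairs.

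The pair HHEX and CYP26A1 spanned 388 kb at chr10:92689951-93077890 (GRCh38), with EXOC6 between them. HHEX rose with chidamide in Raji-4RH and CYP26A1 fell, as given above, whereas EXOC6 was on in both lines at 2.59 and 2.46 FPKM in Raji DMSO and 3.26 and 2.99 in Raji-4RH DMSO. The pair EEF1A2 and BIRC7 spanned 263 kb at chr20:63235883-63499322. BIRC7, an inhibitor of apoptosis, went from 3.48 and 2.9 FPKM to 4.9 and 8.1 with chidamide in Raji-4RH (0.81 ± 0.172). The group of 3, TNNI1, LMOD1 and LGR6, spanned 916 kb at chr1:201403768-202319781 and held 7 other tested genes. SLC26A1 and IDUA overlapped on opposite strands within 25.4 kb at chr4:979073-1004506. IDUA, the lysosomal iduronidase, had 3.79 and 3.82 FPKM in Raji-4RH DMSO and SLC26A1 2.1 and 2.1, and their reads cannot be told apart without strand.

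The other pairs were ZFYVE9 with GPX7 on chromosome 1, GYPC with BIN1 and FAR2P2 with ARHGEF4 on chromosome 2, VILL with XYLB on chromosome 3, HEBP2 with NHSL1 on chromosome 6 and LRRC26 with NOXA1 on chromosome 9. PYGL with ABHD12B lay on chromosome 14, ADCY9 with SRL and CBFA2T3 with LINC00304 on chromosome 16, KCNK6 with RYR1 and ZNF211 with ZNF256 on chromosome 19, and CPXM1 with SLC4A11 on chromosome 20. PYGL, the liver glycogen phosphorylase, rose with chidamide in Raji-4RH (0.90 ± 0.065) while ABHD12B fell (-0.78 ± 0.092). ABHD12B lies within the span of PYGL on the other strand, and HEBP2 and NHSL1 overlap at their ends on opposite strands. Reads in these shared stretches cannot be told apart without strand. The oxidase activator NOXA1 rose (1.49 ± 0.082) and LRRC26 fell (-0.66 ± 0.230), although that call was lost under 7 alternative settings, among them leaving out either Raji-4RH DMSO library (limma adjusted p = 0.0763 and 0.112). Between the members of the 16 neighbourhoods lay 51 other tested genes, and 36 of them were at 2 FPKM or more in all 4 DMSO libraries. NKAIN4 and ZNF418, the 2 of these 51 that were under 0.1 FPKM in both Raji DMSO libraries, reached 0.36 and 0.371 and 2.06 and 1.53 FPKM in Raji-4RH DMSO, under the limit of the rule.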

How the data were processed

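RNA-seq was made of 8 libraries in 4 groups of 2, from cells that the labels' extraction protocol gives as flow-sorted. Per the labels and the file header, the authors deposited a single FPKM table with a gene length; the submitters' processing notes name HISAT2 2.0.5, SAMtools 1.7, HTSeq 0.9.1 and DESeq2 1.22.2 with GRCh38, without their roles. FPKM times gene length and library total gave whole reads for 100% of values (tolerance 0.01).

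The last 662 of 63967 rows repeat the reads of the first 662, and from row 6235 the values stand up to 14 rows below their labels. Genes were placed by 12 blocks of fixed shifts and FPKM was recomputed with the gene's own length, which left 18143 genes. Of the 167 members, 50 share a row with their label and 117 were shifted. Library totals were inferred from the values, with the smallest step of FPKM times gene length taken as a single read and the total refined to whole reads. The whole reads named above are in part a result of that choice.

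Differences were tested with limma 3.58.1 (R 4.3.3; eBayes, trend on) on log2(FPKM + 1), all 8 libraries in 1 model, for 10710 genes at 1 FPKM or more in at least 2 libraries, which all members passed through the libraries that chose them. A call is an adjusted p (Benjamini-Hochberg over these genes) under 0.05. Fold changes on this scale understate changes of low genes. An exact permutation test of 2 against 2 libraries cannot go below p = 0.333 and was not used. The fit was tested on simulated data with the same spread in every group. That test therefore cannot check the unequal spread between groups described above. Intervals of read ratios cover counting error only (95%), with a floor of 3 reads.

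The members, lists and tests were chosen with earlier results of these data known. The text names the 25 most abundant members, the 5 largest rises and falls among called members without overlap, members at 1 FPKM in both Raji chidamide libraries, members within 500 kb of another, 3 genes on each side of each limit and 2 to 4 examples of each family; JAML, LDB3, WNT7B, ZNRF3, TNFRSF18 and other genes outside this rule were chosen after their values were seen. Coordinates are those of GENCODE v29, and promoters those of RefSeq.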

Additional observations from a re-analysis of the deposited data

How the results depend on the processing

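The number of members depended on the limits and on the placing of values. It was 251 with a floor of 1 FPKM, 74 with 5 FPKM and 40 when no read was allowed in either Raji DMSO library. Among the genes whose values share the row of their label, an alternative chosen after seeing the data, there were 50 members; all 50 were called higher in Raji-4RH chidamide than in Raji chidamide, and 24 rose and 14 fell with chidamide in Raji-4RH. In the rows as deposited 156 genes met the rule, 51 of them members. Leaving out 1 DMSO library gave 172 to 185 members.

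Against Raji chidamide, 166 to 167 members were called higher under every other alternative, and the lost one was LRRC26. The replicate block (same-numbered libraries paired) gave 167. Within Raji-4RH, 69 to 77 members rose and 45 to 65 fell, apart from quantile normalisation (62 and 73) and a log2 difference of at least 1 (26 and 7). With that limit 2228 genes of the whole table were called between the lines and 1620 within Raji-4RH. The block gave 77 and 56. Correlations of the deviations of same-numbered libraries ran from -0.279 to 0.166, and whether the number marks a batch was not tested. No other count of calls moved by over 1.5 times under the block. Leaving out 1 library gave 74 to 77 rises and 50 to 65 falls.

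Of 72 named members called within Raji-4RH, 53 lost the call under at least 1 of 17 alternatives, most under the log2 limit. SVIP turned to -0.0034 with quantile normalisation. At 0.5 FPKM 5 members were on in Raji chidamide; without replicate 1 there were 2, and without replicate 2 there was 1. The median member had 527.5 reads in a Raji-4RH DMSO library.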
